A study of Mus musculus with 4 samples.

Results

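The 10 genes described here follow transforming growth factor beta (TGF-β) from its ligand to its targets in alveolar epithelial cells: Tgfb1, Ltbp3, Itgb6, Itgav, Thbs1, Tgfbr1, Tgfbr2, Smad7, Skil and Fn1. They were chosen by name, from the 17117 genes of the deposited table, as rows of the unique molecular identifier (UMI) counts, and all 10 were present. They were read in 4 single-cell libraries of 1 library per group, made from GFP+ cells sorted from mouse lungs and labelled as alveolar type II (AT2) cells, the surfactant-making stem cells of the alveolus. Control mice carried Sftpc-CreER, Cdc42flox/+ and Rosa26-mTmG, and Cdc42 AT2 null mice carried Sftpc-CreER, Cdc42flox/- and Rosa26-mTmG. All mice of both genotypes had 4 doses of tamoxifen and are labelled postnatal day 80, and Cre is driven by the promoter of Sftpc, so deletion and the GFP label begin in cells that use it. Control mice thus carry 1 floxed allele and the same Cre and reporter as the null mice. Each genotype was taken after sham treatment (control sham and null sham) and on day 21 after pneumonectomy (PNX), the removal of lung tissue that makes the remaining lung grow (control PNX and null PNX). The number of mice behind each library is unknown here. Below, values given without a library name are in library order: the control libraries first, sham then PNX, and the null libraries after them, again sham then PNX.

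TGF-β is secreted bound to its own propeptide and to a latent TGF-β binding protein, and it cannot reach its receptors in that form. In the lung epithelium the integrin made of the Itgav and Itgb6 chains pulls the ligand free, and thrombospondin-1, the product of Thbs1, is another activator. The freed ligand joins the type II and type I receptors, which phosphorylate SMAD proteins, and these turn on matrix genes as well as their own inhibitors. The pathway is known in the alveolus for injury, fibrosis and the passage of AT2 cells toward the flat alveolar type I fate.

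Alveolar cells were those with Sftpc at 2% or more of their UMIs or with at least 1 UMI of Cldn4, a claudin of transitional alveolar cells, and with 0 UMIs of Ptprc, Pecam1 and Col1a2. This gave 1635, 1932, 2564 and 1802 cells in library order, 7933 of the 9827 cells kept. Their summed UMIs were 8099735, 9910233, 14406357 and 20712932, and the median UMIs per cell were 4823, 4873, 5202 and 10792.5, so null PNX was the deepest library. The 8 AT2 markers were all present in each library and summed to between 106197 and 180443 CPM, that is UMIs per 1000000 UMIs of the cells summed. Markers of transitional cells (Krt8, Cldn4 and others) summed to 458, 601, 2314 and 11003 CPM. The 10 macrophage and monocyte markers, 9 or 10 of them above 0, summed to 31.7, 12.4, 32.1 and 61.5 CPM, and the 7 fibroblast markers to 16.8, 4.84, 44.8 and 22.7, with 3 to 5 of the 7 above 0 and Col1a2 at 0 in each library by the gate. All 3 club-cell markers were present too, at 5143, 1052, 4743 and 5469 CPM, and the alveolar cells in which they reached 1% of UMIs numbered 39, 16, 287 and 17. Cdc42, the floxed gene, had 184, 225, 265 and 408 CPM, and since a 3′ tag need not lie in the deleted part, this does not check the genotype. Of the barcodes, 54 occurred in 2 libraries (0.539% of all distinct barcodes).

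Because each group is 1 library, no difference below has a replicate check, no test was possible, and every interval (exact 95%) covers counting error only. Levels are CPM of the UMIs summed over the alveolar cells of a library. A gene was counted in a comparison when its mean over the 4 libraries reached 5 CPM, which 8934 genes did. It was called higher or lower when its CPM ratio lay at least 1.5-fold from the median ratio of all counted genes and its interval excluded that median. The median ratio was 1.10 for control PNX over control sham, 1.12 for null sham over control sham, 1.17 for null PNX over null sham and 1.19 for null PNX over control PNX. Division by it matters for direction: of the genes called in these comparisons 51.1%, 53.1%, 45.9% and 49.5% were higher, and without the division 73.9%, 76.1%, 69.8% and 69.9%. All 10 members passed the 5 CPM filter, but Itgb6 and Fn1 passed it only through their level in null PNX, so the filter itself picked them for being high there. The same holds for 330 of the 8934 genes, Plaur, Ctgf and Fstl3 of the wider pathway list among them.

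The members differed most in null PNX. Against null sham, 6 of the 10 members were called higher in null PNX (Itgb6, Fn1, Skil, Smad7, Thbs1 and Tgfbr1) and 0 lower. Of all counted genes 36.8% were called there, 16.9% higher and 19.9% lower. Without Itgb6 and Fn1 the count was 4 of 8. Against control PNX, 7 members were higher (Itgb6, Fn1, Thbs1, Tgfbr1, Tgfb1, Skil and Itgav) and 2 lower (Ltbp3 and Tgfbr2), where 43.2% of all counted genes were called, 21.4% higher and 21.8% lower. Without Itgb6 and Fn1, 5 of 8 were higher and 2 lower. Between the control libraries 1 member was called, Skil, as lower in control PNX, where 8.36% of all counted genes were called, 4.28% higher and 4.09% lower. In null sham against control sham, Fn1 and Thbs1 were higher and Ltbp3 and Skil lower, where 16.5% of all counted genes were called, 8.76% higher and 7.73% lower. Leaving out Itgb6 and Fn1, 1 of 8 was higher and 2 lower. The comparisons share libraries, so their calls are not independent of each other.

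**Figure D1:**
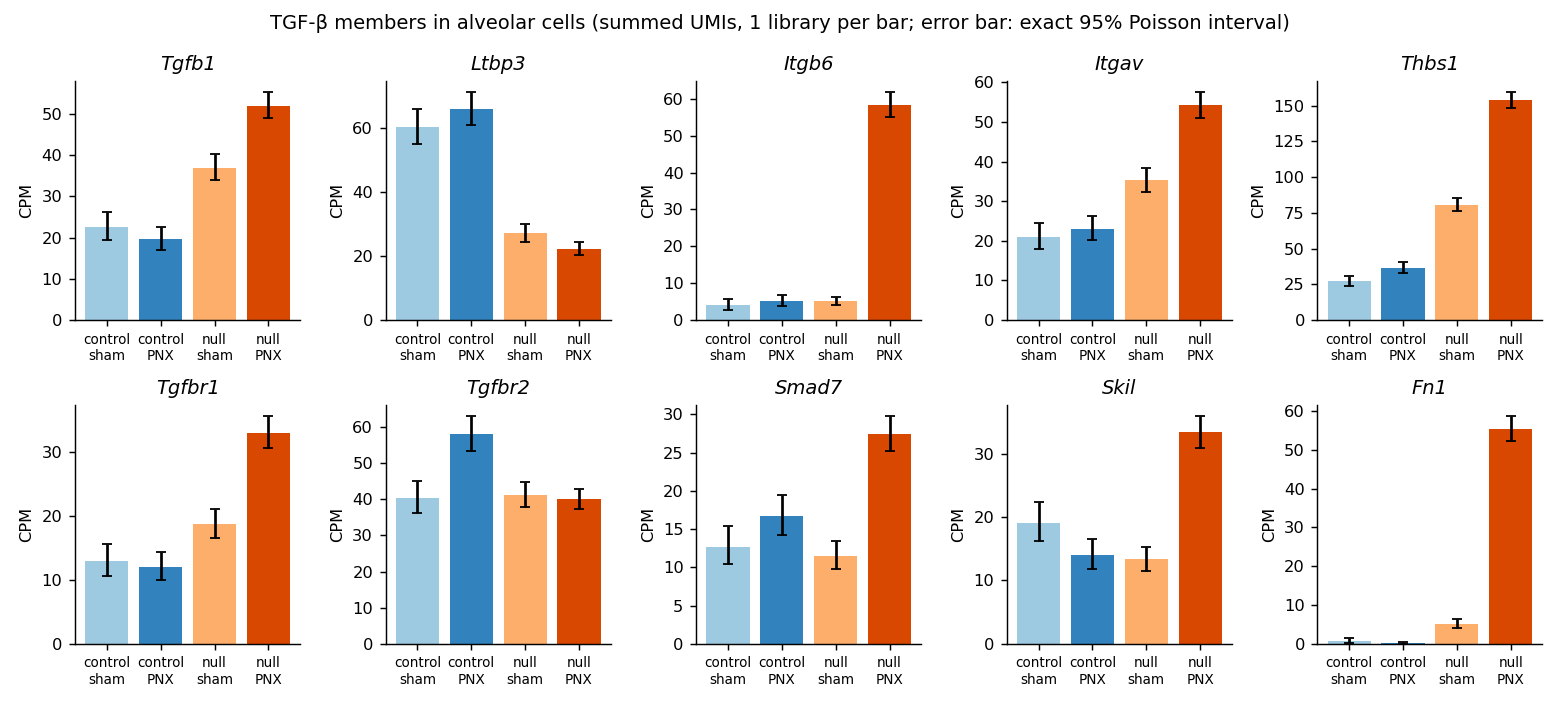
Level of each of the 10 TGF-β members in alveolar cells (y axis, CPM of summed UMIs, starting at 0) in the 4 libraries (x axis), 1 library per bar, with exact 95% Poisson intervals. Itgb6 and Fn1 stand at 58.4 and 55.4 CPM in null PNX and at or under 5.15 CPM in each other library, while Ltbp3 is lower in both null libraries than in both control libraries.

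The ligand was higher and its binding protein lower in the null libraries. Tgfb1, the ligand (mm10 chromosome 7, 25687002 to 25705077, plus strand, GENCODE M21 annotation), had 22.6 CPM (19.4 to 26.1) in control sham and 19.7 (17.0 to 22.6) after PNX, against 37.0 (33.9 to 40.3) in null sham and 52.0 (49.0 to 55.2) after PNX. Both null libraries lay above both control libraries without overlap of the intervals. Null PNX was at 2.65 times control PNX (2.27 to 3.10) and was called higher, whereas null sham at 1.64 times control sham (1.38 to 1.95) and null PNX at 1.41 times null sham (1.27 to 1.56) fell short of the fold and counted as neither.

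Ltbp3, a latent TGF-β binding protein that holds the ligand in its inactive complex (chromosome 19, 5740904 to 5758532, plus strand), had 60.4 and 65.9 CPM in the controls, sham and PNX, against 27.1 and 22.2 in the nulls. Control libraries were high and null libraries low, with intervals that did not overlap. Null sham was 2.22-fold lower than control sham (1.94 to 2.55) and null PNX 2.97-fold lower than control PNX (2.63 to 3.36), both called. Within each genotype PNX and sham differed little, at a ratio of 1.09 (0.969 to 1.23) in the controls and 0.816 (0.712 to 0.937) in the nulls, and neither was called.

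Of the activators, Itgb6 had the sharpest pattern. It encodes the β6 chain, which pairs only with αv, and lies on chromosome 2 at 60598292 to 60722643 on the minus strand. Its partner chain αv is made from Itgav, on chromosome 2 at 83724397 to 83806916 on the plus strand. The upstream sequences of both chains are printed because the partners differed in how far null PNX stood from the rest, and that of Ltbp3 because it was lower in the nulls. They come from RefSeq (GRCm38.p6), which holds 8 windows for 6 of the 10 members in the table used here. Each runs 5′ to 3′ on the gene's own strand and ends before the first exon in GENCODE M21, at chr2:60722644-60722853 for Itgb6, chr2:83724147-83724396 for Itgav and chr19:5740650-5740899 for Ltbp3. Capitals mark CAGAC or its reverse GTCTG, a core of SMAD binding sites:
Itgb6: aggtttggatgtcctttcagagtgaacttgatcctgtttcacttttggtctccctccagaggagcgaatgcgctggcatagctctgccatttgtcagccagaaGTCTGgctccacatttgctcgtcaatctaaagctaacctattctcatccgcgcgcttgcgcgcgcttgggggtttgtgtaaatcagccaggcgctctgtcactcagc
Itgav: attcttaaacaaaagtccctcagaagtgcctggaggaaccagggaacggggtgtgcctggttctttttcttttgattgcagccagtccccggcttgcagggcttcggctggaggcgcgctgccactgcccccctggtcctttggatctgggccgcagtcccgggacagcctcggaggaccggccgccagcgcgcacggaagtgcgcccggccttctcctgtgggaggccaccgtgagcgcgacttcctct
Ltbp3: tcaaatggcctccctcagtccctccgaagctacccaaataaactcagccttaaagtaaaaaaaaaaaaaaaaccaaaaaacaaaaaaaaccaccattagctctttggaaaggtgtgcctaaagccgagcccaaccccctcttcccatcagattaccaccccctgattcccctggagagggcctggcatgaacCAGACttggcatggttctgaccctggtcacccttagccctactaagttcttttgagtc

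The Itgb6 and Ltbp3 windows each hold 1 such match, 147 and 58 bases before the RefSeq start site, and the Itgav window holds 0. The last printed base lies 41 bases before the RefSeq start site for Itgb6, whose GENCODE exon begins further upstream, and 1 base before it for the other genes. These letters occur in 42.2% of 32851 RefSeq promoter windows of 250 bases, so a match is common. TGANTCA, the AP-1 motif, and GGAATG, a TEAD motif, were searched on both strands as well and occur in 6.75% and 12.6% of those windows. None of the 3 printed windows holds either. GC content was 52.4% for Itgb6, 64.4% for Itgav and 47.2% for Ltbp3. A match is a string of letters and is not a measured site.

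Itgb6 had 4.07 and 5.15 CPM in the controls, from 33 and 51 UMIs, against 5.07 in null sham (73 UMIs) and 58.4 in null PNX (1209 UMIs). Only null PNX was high, and the other 3 intervals overlapped. Null PNX was at 11.5 times null sham (9.09 to 14.8) and 11.3 times control PNX (8.57 to 15.3). Itgav had 21.0, 23.0, 35.3 and 54.2 CPM in the same order, a smaller and more even difference. It was called higher only in null PNX over control PNX, at 2.36-fold (2.04 to 2.73), and stood at 1.68 times control sham in null sham (1.41 to 2.01), 1.49 times after division by the median ratio.

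Thbs1 (chromosome 2, 118111876 to 118127133, plus strand) differed between all 4 libraries. It had 27.2, 36.3, 80.5 and 154 CPM in library order, 4 levels whose intervals did not overlap. Null sham was at 2.96 times control sham (2.56 to 3.44), null PNX at 1.91 times null sham (1.78 to 2.04) and null PNX at 4.23 times control PNX (3.79 to 4.73), all called. The UMIs came from many cells: in null PNX 909 alveolar cells held 3185 UMIs, and the cell with most of them held 37.

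The receptors went in different directions. Tgfbr1, the type I kinase receptor (chromosome 4, 47353222 to 47414931, plus strand), had 13.0, 12.01, 18.7 and 33.1 CPM. Null PNX was high and null sham intermediate, and the controls overlapped. Null PNX was at 2.75 times control PNX (2.26 to 3.37). Over null sham its ratio after division by the median was 1.51, barely past the fold, and the call was lost under 7 of the 18 alternative settings, 1 of them leaving out the cell with most of its UMIs in each library. Tgfbr2, the type II receptor that binds the ligand first (chromosome 9, 116084293 to 116175360, minus strand), had 40.5, 58.1, 41.2 and 40.1 CPM. It was high in control PNX alone, and the intervals of the other 3 libraries overlapped. Null PNX was 1.45-fold lower than control PNX (1.30 to 1.61), a call that was lost when ratios were not divided by the median.

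Smad7 and Skil are targets of the pathway that restrain it, the first by blocking the type I receptor and the second by holding SMAD complexes inactive. Smad7 had 12.7, 16.6, 11.5 and 27.4 CPM, and only null PNX lay clear of the rest, at 2.38 times null sham (2.00 to 2.85). Skil (chromosome 3, 31095058 to 31122577, plus strand) had 19.1, 14.0, 13.3 and 33.4 CPM, with control sham between null PNX above and the other 2 libraries below. Null PNX was at 2.51 times null sham (2.13 to 2.96) and 2.38 times control PNX (1.98 to 2.88). Its 1.36-fold lower level in control PNX than in control sham (1.08 to 1.73) was called only just, at 0.665 times after division by the median, and lost under 7 of 18 alternative settings.

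Fn1, which encodes fibronectin and is a classical matrix target of TGF-β (chromosome 1, 71585520 to 71653200, minus strand), was hardly detected in control alveolar cells. It had 5 and 1 UMIs in the controls (0.617 and 0.101 CPM), against 74 in null sham (5.14 CPM) and 1148 in null PNX (55.4 CPM). Null PNX was at 10.8 times null sham (8.53 to 13.8), and null sham at 8.32 times control sham (3.41 to 26.4). Against the single UMI of control PNX the ratio was 549, with a counting interval of 98.4 to 21714, so its size is hardly determined. In null PNX the UMIs sat in 296 cells, and 61 of the 1148 were in 1 cell. Outside the alveolar gate Fn1 had 36.4 CPM in control sham and 202 in null sham. In both libraries its share of alveolar cells did not exceed that of lymphocytes, as given below. The part of RNA from other cells in the 8.32-fold ratio was not tested.

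**Figure D2:**
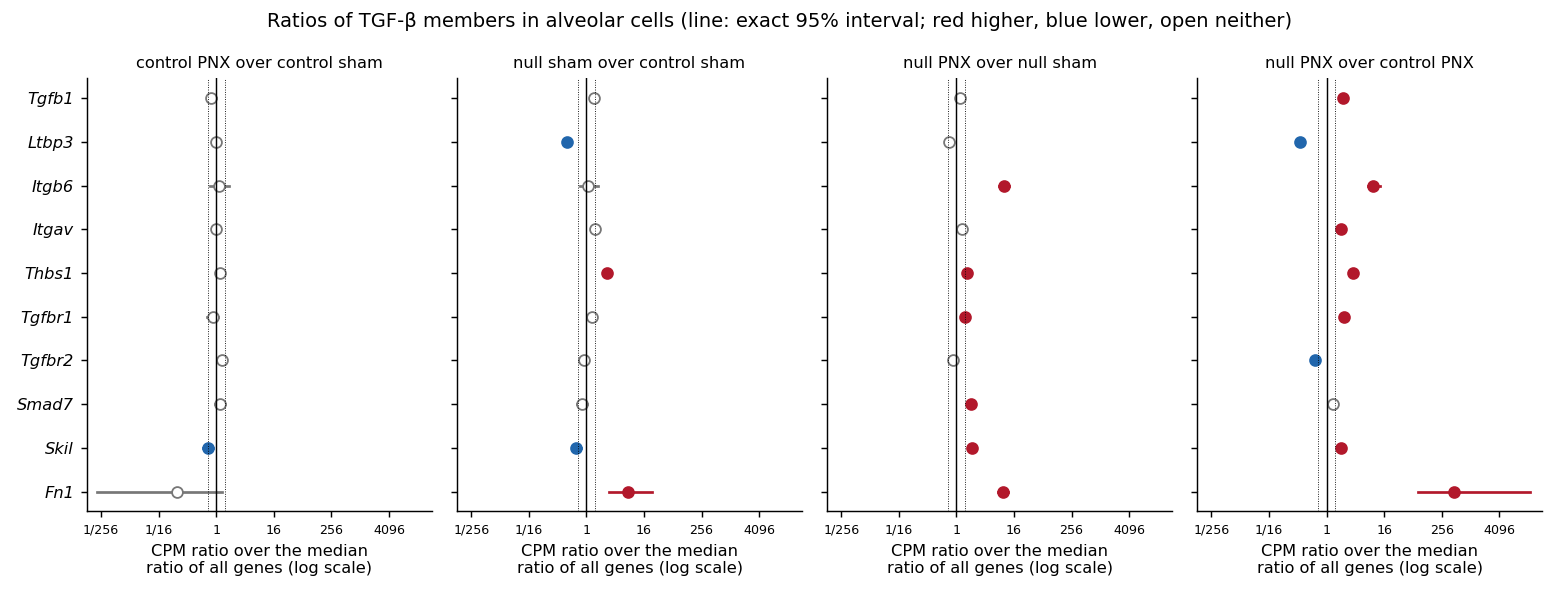
CPM ratio of each member divided by the median ratio of all counted genes (x axis, log scale) in the 4 comparisons (1 panel each), with exact 95% intervals as lines. Filled red points are called higher, filled blue points lower and open points neither; dotted lines mark 1.5-fold, and 6 points in the panel of null PNX over null sham are red.

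The wider pathway list held 72 genes, of which 43 reached the 5 CPM filter, the 10 members included. In null PNX over null sham 19 of the 43 were higher and 7 lower, where 16.9% of all counted genes were higher and 19.9% lower. Without the 5 genes that passed the filter only through null PNX (Itgb6, Fn1, Plaur, Ctgf and Fstl3), 15 of 38 were higher and 7 lower, beside 14.9% and 20.6% of the 8604 genes left of all. Of the 12 targets then left 8 were higher and 0 lower, and of the 3 activators 1 was higher, Thbs1, and 0 lower. Of 17 SMADs and modulators, 5 were higher and 6 lower. The other comparisons, over the 43, had 4 higher and 4 lower in control PNX over control sham (4.28% and 4.09% of all counted genes) and 7 and 8 in null sham over control sham (8.76% and 7.73%). Null PNX over control PNX had 21 and 9 (21.4% and 21.8%), and without the 5 genes 17 and 9 of 38 (19.4% and 22.7% of the genes left). The list's median log2 ratio over the 43, relative to all genes whose own median is 0 by construction, was 0.42 in null PNX over null sham and 0.06, 0.09 and 0.50 in the others. These medians include the 5 genes that the filter picked for null PNX, and no median without them was taken.

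Outside the members, the pathway genes with the highest ratios to null sham included several targets. Cyr61 and Ctgf, matricellular genes that YAP also controls, were at 35.6 and 27.2 times null sham, with 200.2 and 17.0 CPM in null PNX. Plaur, the urokinase receptor, was at 17.1 times null sham (12.9 to 23.3), with 58.3 CPM in null PNX against 3.40 in null sham. Ctgf and Plaur passed the level filter only through null PNX, so no more than their values is read here. The cyclin-dependent kinase inhibitors Cdkn1a and Cdkn2b were at 7.18 and 6.46 times null sham. In the other direction stood Smad3, Smad6, Furin (the protease that cleaves the TGF-β precursor), Smurf2 and Smad4, at 0.541, 0.611, 0.641, 0.708 and 0.731 times null sham.

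Against control PNX the genes furthest up in null PNX were Plaur, Cyr61, Ctgf, Pmepa1 (a SMAD-induced inhibitor) and Cdkn2b, at 82.5, 21.3, 8.02, 5.58 and 5.04 times. Plaur rested on 7 UMIs in control PNX. Lower were Nedd4l, Smad6, Smurf2, Bambi (a decoy receptor) and Smad3, at 0.335, 0.398, 0.548, 0.666 and 0.726 times. Null sham against control sham had Fstl3, Plaur, Bhlhe40 and Pmepa1 among its highest, at 2.97, 2.50, 2.32 and 1.81 times. Its lowest were Cdkn2b, Nedd4l, Cdkn1a, Cyr61 and Bambi, at 0.434, 0.557, 0.602, 0.651 and 0.668 times. In control PNX over control sham Fstl3, Sparc, Id1 and Tgfbi were higher, at 3.04, 2.21, 1.80 and 1.71 times, and Cdkn2b, Junb and Tgfb3 were lower, at 0.557, 0.607 and 0.701 times.

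Null PNX alveolar cells were not uniform. Cells with Cldn4 held 1088 of its 1209 Itgb6 UMIs and 1057 of its 1148 Fn1 UMIs. Cldn4-positive alveolar cells numbered 0, 3, 69 and 974 in library order. In null PNX 7 of the 10 members were higher in the 974 positive than in the 828 negative cells and 0 were lower, where 15.5% of 9135 counted genes were called, 8.08% higher and 7.44% lower. Itgb6 had 88.7 against 14.3 CPM, a ratio of 6.19 (5.13 to 7.53), and Fn1 86.2 against 10.8 CPM, a ratio of 7.999 (6.45 to 10.02). By the gate every negative cell had Sftpc at 2% or more, while 406 of the positive cells did not, so these ratios also compare unlike Sftpc. Positive cells that kept Sftpc had 40.8 CPM of Itgb6 and 18.9 of Fn1. The other 5 members higher in all positive cells were Smad7, Skil, Thbs1, Tgfbr1 and Itgav, at 2.32, 2.25, 2.07, 2.01 and 1.95 times. Tgfb1 at 1.43 (1.25 to 1.62), Tgfbr2 at 1.10 (0.954 to 1.27) and Ltbp3 at 0.876 (0.726 to 1.06) counted as neither. Positive cells were also deeper, with a median of 12072.5 against 9889 UMIs, and the same 7 members were called when every cell was first thinned to 3000 UMIs, a random draw of that many UMIs per cell. Of the pathway list 26 of 47 genes counted were higher in Cldn4-positive cells and 1 was lower. A gene was counted here when the mean of its CPM in positive and negative cells reached 5. Some genes may thus enter only for being high in positive cells, and no count without them was made.

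The Cldn4-positive cells split further by Sftpc. In null PNX 568 still had Sftpc at 2% or more and 406 did not, and the latter had the highest levels. Itgb6 had 14.3 CPM in Cldn4-negative cells, 40.8 in Cldn4-positive cells that kept Sftpc and 174 in those low in it. Fn1 had 10.8, 18.9 and 206 CPM in the same order, and the last group held 909 of the 1148 UMIs. Thbs1 (94.1, 172 and 235 CPM), Itgav (34.7, 52.4 and 94.8), Skil (19.2, 32.1 and 62.9), Smad7 (15.4, 26.0 and 52.9) and Tgfb1 (41.6, 51.6 and 72.9) also stepped up at each division, with intervals that did not overlap. Tgfbr1 had 20.7, 25.5 and 70.1 CPM, and its first 2 intervals overlapped. AT2 markers summed to 144983 CPM in the first group and 14796 in the last, as the division by Sftpc implies. Ltbp3 (23.9, 21.2 and 20.6) and Tgfbr2 (37.9, 42.7 and 39.8) had overlapping intervals in all 3 groups. Markers of other cells were not even across the groups: macrophage markers summed to 42.3, 30.6 and 153 CPM and club markers to 2017, 971 and 20053, and levels without such cells follow after the cells outside the gate.

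**Figure D3:**
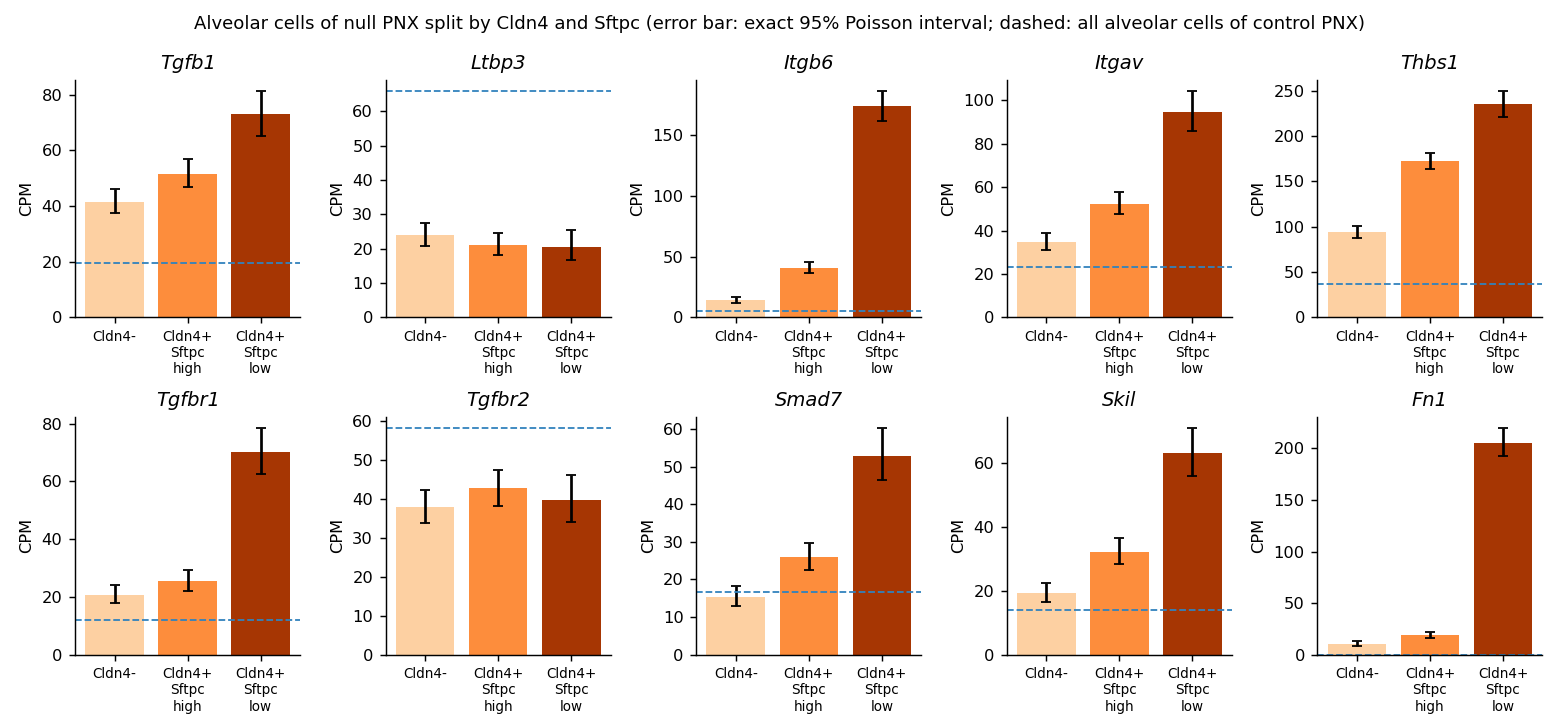
CPM of each member (y axis, starting at 0) in null PNX alveolar cells that were Cldn4-negative, Cldn4-positive with Sftpc at 2% or more, or Cldn4-positive with less Sftpc (x axis), with exact 95% Poisson intervals; the dashed line is the level in all alveolar cells of control PNX. Itgb6 and Fn1 reach 174 and 206 CPM in the last group, and Ltbp3 and Tgfbr2 stay near one level in all 3.

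Among Cldn4-negative cells the genotypes still differed in some members, while most differences between null PNX and null sham were small. In these cells null PNX over null sham was 3.74 (2.69 to 5.27) for Itgb6, the 1 member called in this comparison. Itgb6 had 4.07, 5.05, 3.83 and 14.3 CPM in library order, so its mean passed the 5 CPM filter only through null PNX. The ratio was 2.02 (1.47 to 2.78) for Fn1, 1.82 after division by the median ratio, and between 0.873 and 1.47 for the other 8. Fn1 could not be called because its mean in these cells fell under the 5 CPM filter, at 0.617, 0.101, 5.35 and 10.8 CPM in library order. Null PNX over control PNX still stood at 2.13 (1.78 to 2.55) for Tgfb1, 2.59 (2.28 to 2.94) for Thbs1 and 0.363 (0.309 to 0.426) for Ltbp3. Among Cldn4-positive cells, null PNX had 2.50 times the Itgb6 of null sham (1.61 to 4.11). Fn1 had 0 UMIs in the 69 positive cells of null sham, and was at least 16.2-fold higher in null PNX, taking 3 counts as the floor of null sham. Thbs1 was lower in null PNX than in null sham here, 195 against 314 CPM.

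Krt8, a keratin that marks stressed and transitional alveolar cells, gave a second view, as a per-cell range rather than a cell type. Alveolar cells were divided at 5 and 20 Krt8 UMIs per 10000, and 210 cells of null sham and 743 of null PNX, but 0 of control sham and 7 of control PNX, lay in the top range. Within 20% of the upper bound lay 1, 12, 133 and 282 cells in library order. Thbs1 was higher in the higher ranges of every library: in the lowest range it had 23.4, 26.6, 25.7 and 37.4 CPM in library order, and in the middle range 94.5, 112, 75.0 and 87.4. In the top range it had 351 CPM in null sham and 247 in null PNX. Within a range of Krt8 the genotypes lay closer than over all cells. Null sham over control sham was 1.09 (0.882 to 1.36) in the lowest range and 0.794 (0.574 to 1.13) in the middle one, and null PNX over control PNX was 1.41 (1.06 to 1.85) and 0.781 (0.640 to 0.961).

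Ltbp3 and Itgb6 behaved differently across the same ranges. Ltbp3 in the lowest range had 60.2 and 66.7 CPM in the controls against 30.2 and 33.5 in the nulls, so the genotypes differed by a ratio of 0.501 (0.423 to 0.593) after sham and 0.502 (0.378 to 0.655) after PNX among cells of low Krt8. Tgfb1 likewise differed there, at 1.37 (1.12 to 1.69) and 1.84 (1.36 to 2.47). Itgb6 in the top range had 22.3 CPM in null sham and 106 in null PNX, a ratio of 4.76 (3.37 to 6.95). In that range Smad7, Skil and Tgfbr1 were also higher in null PNX, at 3.86 (2.31 to 6.97), 2.77 (1.85 to 4.32) and 2.12 times (1.47 to 3.16), while Thbs1 was at 0.703 (0.639 to 0.775). These ratios within ranges are not divided by the median ratio of all genes and were chosen after the values had been seen.

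**Figure D4:**
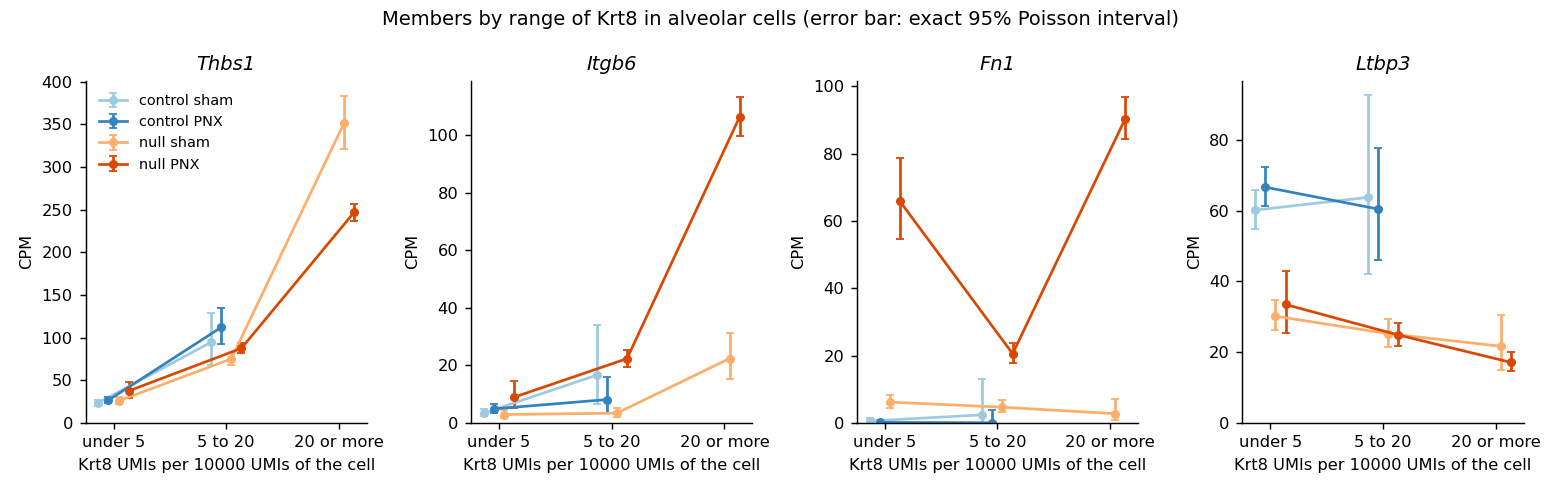
CPM of Thbs1, Itgb6, Fn1 and Ltbp3 (y axes, starting at 0) by range of Krt8 UMIs per 10000 UMIs of the cell (x axis), 1 line per library, with exact 95% Poisson intervals; the top range has no control points because it held 0 and 7 control cells. Thbs1 climbs with Krt8 in all libraries, Itgb6 climbs furthest in null PNX, and Fn1 in null PNX is high at both ends.

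Cells outside the alveolar gate also held members. They numbered 373, 235, 561 and 334 in library order. Itgb6 had 2.97, 1.97, 3.03 and 26.1 CPM there. Of the cell kinds named, cells positive for Ptprc alone and without Cd3e, Cd3d or Cd79a (leukocytes without lymphocyte genes) had at most 5.09 CPM, and cells positive for Col1a2 alone (fibroblast gate) had 0 UMIs in each library. Of 51 UMIs outside the gate in null PNX, 43 were in cells with 0 UMIs of Ptprc, Pecam1 and Col1a2, whose transitional markers summed to 6394 CPM. Thinned to 3000 UMIs, 13.7% of null PNX alveolar cells held an Itgb6 UMI (12.1 to 15.4), where the other libraries had 1.22%, 1.64% and 1.21% in order. None was found in the 91 null PNX lymphocytes of that depth, 0 of 91, which allows a share of up to 3.97%. Before thinning the shares were 28.7% and 2.68% at median UMIs of 10792.5 and 3390.

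Tgfb1 was more abundant outside the gate. It had 311, 231, 288 and 292 CPM in leukocytes without lymphocyte genes and 124, 134, 145 and 177 in lymphocytes, above the alveolar level of each library. Lymphocytes here are all cells outside the gate with a UMI of Cd3e, Cd3d or Cd79a, whatever their other markers, so the class is mixed. In null sham it also had C1qa at 75.3, Chil3 at 80.5 and Col3a1 at 51.5 CPM, and in control PNX Chil3 at 1272. Lymphocytes thinned to 3000 UMIs held it in 31.5%, 22.2%, 36.6% and 44.0% of cells, against 7.05%, 5.61%, 9.93% and 13.4% of alveolar cells (in null PNX before thinning, 56 of 112 lymphocytes and 39.5% of alveolar cells). Lymphocytes can hold RNA of their own as well as free RNA, so their share is not a measure of free RNA alone. Where the alveolar share is at or below it, as for Tgfb1, the shares do not separate alveolar expression from free RNA. In null PNX the same holds for Smad7 (7.81% of alveolar cells and 24.2% of lymphocytes), Skil (8.99% and 13.2%) and Tgfbr1 (8.66% and 8.79%). What is given above for these 3 is their CPM, which does not remove this limit. In null PNX they had 27.4, 33.4 and 33.1 CPM in alveolar cells and 112, 52.6 and 30.7 in lymphocytes. The part of free RNA in the alveolar levels was not tested. It also holds for Smad7 in each other library, Tgfbr2 and Skil in both controls, Tgfbr1 in control PNX and Itgav in control sham. Fn1 falls under it in control sham and null sham, with 0.144% and 1.39% of alveolar cells against 1.85% and 4.30% of lymphocytes, and overlapping intervals. Smad7 had 277, 456, 120 and 84.4 CPM in cells positive for Pecam1 alone (endothelial gate), where the last value rests on 4 UMIs. Tgfbr2 had 252, 443, 324 and 68.2 CPM in the fibroblast gate. Both exceeded the alveolar level of the same library, with intervals that overlapped it in null PNX. After thinning Thbs1 was held by 6.12%, 6.55%, 14.2% and 26.5% of alveolar cells and by 1.85%, 0%, 3.23% and 9.89% of lymphocytes, with intervals apart in the null libraries and overlapping in the controls. Ltbp3 was held by 16.4%, 18.1%, 7.92% and 8.15% of alveolar cells and by 11.1%, 0%, 0% and 1.10% of lymphocytes, with intervals that overlapped in control sham and were apart in the other libraries. A count of 0 lymphocytes allows a share of up to 9.74% in control PNX and 3.89% in null sham.

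Fn1 was abundant in cells other than alveolar ones. In the fibroblast gate it had 526, 831, 435 and 731 CPM in library order, in 12, 8, 60 and 17 cells. Leukocytes without lymphocyte genes had 35.7, 27.0 and 165 CPM and, in the 95 of null PNX, 536. Thinned to 3000 UMIs, 7.48% of null PNX alveolar cells held an Fn1 UMI (6.30 to 8.80). This was not above the 8.79% of lymphocytes (3.87 to 16.6). At this depth the Fn1 share over all alveolar cells thus does not separate alveolar expression from free RNA. The order turns with depth: at 2000 UMIs the shares were 6.16% (5.09 to 7.37) and 3.57% (0.982 to 8.89), and at 5000 UMIs 9.04% and 18.75%, the latter from 16 lymphocytes, and the intervals of both kinds of cell overlapped at each depth. The shares before thinning were 16.4% and 8.93%. Of the 34 lymphocyte UMIs, 19 were in 1 cell. In Cldn4-positive cells low in Sftpc it was 20.7% (16.8 to 25), with 3.69 UMIs per positive cell. Fn1-positive alveolar cells of null PNX had 168 CPM of 10 macrophage and monocyte markers, 9 of them above 0, against 37.1 CPM in alveolar cells without Fn1. For Itgb6 the order was the opposite, 33.2 CPM in positive and 75.1 in negative cells.

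Macrophage markers stood beside Fn1 in the Krt8-low cells of null PNX and were low in the Krt8-high cells. They summed to 322 CPM in the lowest Krt8 range and 32.1 in the top one. Fn1 had 65.8 CPM in all cells of the lowest range and 9.27 in those with 0 UMIs of all 10 markers, against 90.4 and 82.4 in the top range. Over all alveolar cells at 0 for the markers it had 0.685, 0.106, 4.01 and 48.4 CPM, and Itgb6 had 3.97, 5.32, 4.86 and 59.6. In the 273 null PNX cells that were Cldn4-positive, low in Sftpc, at 0 for the macrophage markers and under 1% club markers, Fn1 had 194 CPM (177 to 212) and Itgb6 200 (183 to 218). Thbs1, Itgav, Tgfbr1, Skil, Tgfb1 and Smad7 had 262, 100.2, 76.1, 68.3, 68.3 and 50.7 CPM there, against 91.4, 34.6, 21.1, 19.4, 41.8 and 15.6 in Cldn4-negative cells under the same conditions, with intervals that did not overlap. Ltbp3 and Tgfbr2, at 23.8 against 23.3 and 44.1 against 38.0 CPM, overlapped. The part of macrophage RNA in the Fn1 level was not tested, in the 273 cells or elsewhere, and 0 UMIs of the markers does not test it. The 11 Cldn4-positive, Sftpc-low cells of null PNX with club markers at 1% or more held 0 UMIs of Fn1.

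**Figure D5:**
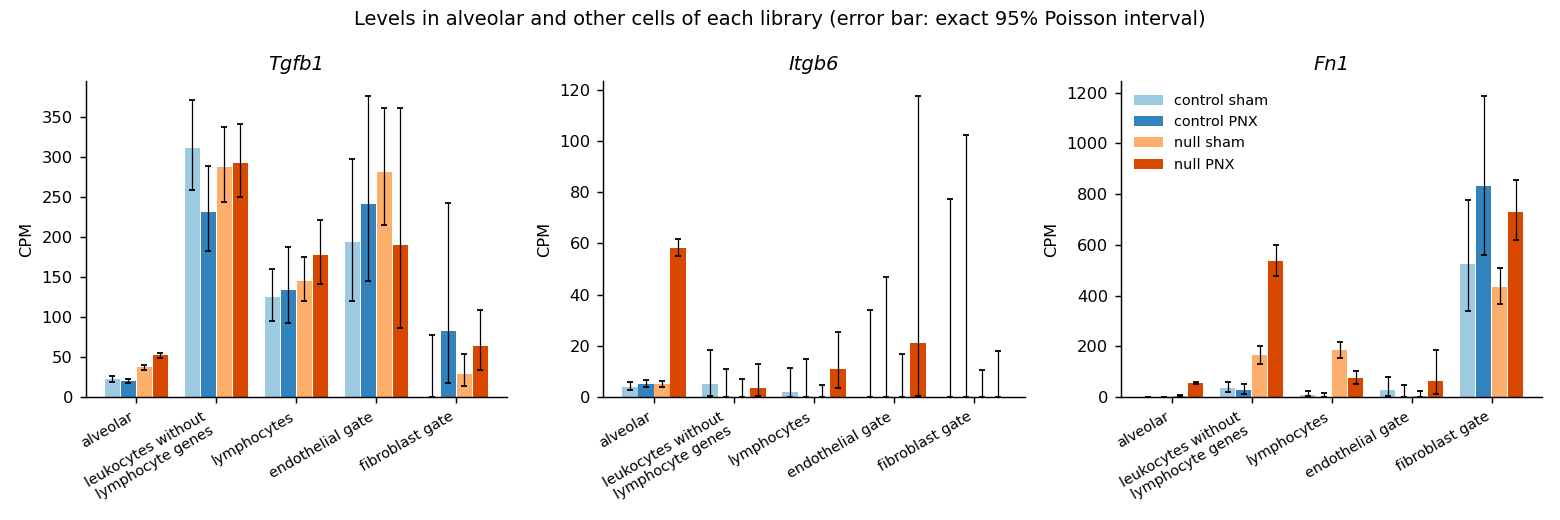
CPM of Tgfb1, Itgb6 and Fn1 (y axes, starting at 0) in alveolar cells and 4 other kinds of cells (x axis), 1 bar per library, with exact 95% Poisson intervals. Itgb6 is high in alveolar cells of null PNX at 58.4 CPM, whereas Tgfb1 and Fn1 are higher in leukocytes without lymphocyte genes and Fn1 also in the fibroblast gate.

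Cells with Itgb6 more often held other members as well. Among null PNX alveolar cells thinned to 3000 UMIs, Fn1 was detected in 22.1% of 244 Itgb6-positive cells (17.1 to 27.9) and in 5.15% of 1535 Itgb6-negative cells (4.10 to 6.37). Thbs1 was detected in 37.7% of Itgb6-positive and 24.8% of negative cells, and Itgav in 23.8% and 15.8%. The shares for Ltbp3 overlapped, at 8.61% (5.41 to 12.9) and 8.08% (6.76 to 9.56). Smad7 was detected in 20.3% of 133 Fn1-positive cells and 6.80% of the others. These cells share 1 library, so the shares describe it alone.

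Few genes had the profile of Itgb6 over the 4 libraries. Of 7050 genes of at least 10 CPM, 21 lay within a root mean square difference of 0.5 in centred log2 CPM, and the closest were Fxyd3 (0.12), Foxq1 (0.22) and Areg (0.24), the last an epidermal growth factor receptor ligand. Areg had 46.1, 54.9, 79.4 and 609 CPM. Only 1 gene came within 0.5 of Fn1, Kng2 at 0.41, followed by Plaur at 1.10 and Tpm2 at 1.19. The 10 CPM is a mean over the 4 libraries, and Fxyd3, Foxq1, Kng2 and Plaur reach it only through null PNX, as do Itgb6 and Fn1. Fxyd3, for 1, had 3.83, 4.54, 5.28 and 64.0 CPM. The filter thus lets in low genes for being high there, and these likenesses are no separate result. For Tgfb1, whose levels differ less, 3527 genes lay as close, and its nearest were Plp2, Igsf5 and Ift172. A likeness over 4 libraries says nothing of shared control.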

How the data were processed

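Single-cell RNA was measured in 4 libraries. The deposited table holds raw UMI counts per gene and cell, not normalized by the authors as far as its whole-number values show. Cell Ranger 2.1.0, Seurat 2.3.4 and mm10 come from the submitters' processing notes, which give no role or order. How the authors filtered cells and treated doublets is unknown here, and every gene has a UMI in at least 3 cells. The shallowest cell held 691, 1171, 1379 and 2669 UMIs (controls then nulls, sham before PNX), so upstream filters may differ between libraries. Barcode endings gave the library, per the labels, and 0 columns were left unused.

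Of 10077 cells, 9827 had 500 genes or more and no more than 20% mitochondrial UMIs. No doublet caller was run. The alveolar gate left out 63, 34, 133 and 161 cells that met its Sftpc or Cldn4 rule but held UMIs of Ptprc, Pecam1 or Col1a2. Counts were summed per library and given as CPM with exact Poisson intervals. Ratios and shares have Clopper-Pearson intervals. The call rule was tested on simulated Poisson counts, which vary by counting error only. They cannot show how often it errs between single libraries. UMIs limit amplification copies, and intervals and floors (3 counts) cover counting error only. Shares were read after thinning each cell to 3000 UMIs, which left out 245, 222, 329 and 23 alveolar and 89, 38, 123 and 21 lymphocyte cells. Named beside the members are up to 5 called pathway genes per direction and comparison with the largest ratios, and the 3 genes of most similar profile to Tgfb1, Itgb6 and Fn1 (0.5 counts added). A gene of the pathway list that this rule names is not reported here. The members, gene lists, comparisons and rules were chosen with earlier results of these data known. Python 3.11.15, numpy 2.4.6, scipy 1.17.1 and pandas 2.3.3 were used. Counts without genes that pass the level filter only through null PNX were added after seeing the data. The alternatives comprise 15 settings listed in advance of this computation and 3 chosen after seeing the data (macrophage markers at 0, club markers under 1%, and without the 5% of alveolar cells with most UMIs).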

Additional observations from a re-analysis of the deposited data

Results flagged for a closer look

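Relative to the median ratio of all genes, PNX went with opposite differences in the 2 genotypes for 3 members. Their counting intervals lay on opposite sides of that median. The difference between the genotypes was not tested, since each group is 1 library. Skil, relative to that median, was at 0.665 in control PNX over control sham and at 2.14 in null PNX over null sham. Tgfbr2 was at 1.30 and 0.832, and Tgfb1 at 0.791 and 1.20, in the same order. Before this division the CPM intervals of sham and PNX overlapped for Tgfbr2 in the nulls, at 41.2 and 40.1 CPM. They also overlapped for Tgfb1 in the controls, at 22.6 and 19.7 CPM. Both Tgfb1 and Tgfbr2 were within 1.5-fold in both genotypes and counted as neither in all 4.

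Cells left out of the alveolar gate, because they met its Sftpc or Cldn4 rule but held UMIs of Ptprc, Pecam1 or Col1a2, also carried members in null PNX above both control libraries. The 161 such cells had Fn1 at 197 CPM, Thbs1 at 153, Itgb6 at 57.1 and Skil at 42.3. In the same cells the fibroblast markers summed to 1178 CPM, the macrophage and monocyte markers to 372 and the mesothelial markers to 204, against 29.9 to 271, 22.5 to 250 and 0 to 6.32 CPM in the other libraries. Their part in these levels was not tested.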

How the results depend on the processing

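Counts of called members and pathway genes in the 4 comparisons were recomputed under 18 alternatives, and 129 of 144 stayed within 1.5 times. The single call in control PNX over control sham became 0 with the stricter cell filter, with Sftpc at 2% and Cldn4 at 0, with genes of at least 10 CPM, at 2-fold, relative to a ratio of 1 and with club markers under 1%, and 2 with per-cell means or thinned cells. Its 8 pathway calls became 4 with genes of at least 10 CPM and 2 at 2-fold, and the 15 in null sham over control sham became 8 at 2-fold. With Sftpc at 2% and Cldn4 at 0, which removes the Cldn4-positive cells by construction, null PNX over null sham had 1 member and 15 pathway genes called in place of 6 and 26 (15 also at 2-fold), null PNX over control PNX had 18 pathway genes in place of 30, and Tgfbr1 in null PNX over null sham turned to 0.997. Leaving out any library is not possible with 1 per group. No paired analysis was possible because each group has 1 library and no replicate numbers to pair.

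Relative to a ratio of 1 most called genes were higher, as given with the call rule. The log2 shift of all genes behind this was 0.14, 0.17, 0.23 and 0.25 in the order of the comparisons there. For members called, 269 of 299 recomputed ratios stayed within the original counting interval. Calls of Fn1 and Itgb6 across these settings are no sign of stability, since the level filter picked both for null PNX. Shares follow the depth of thinning: of 80 recomputed at 2000 and 5000 UMIs, 68 left their counting interval at 3000. With 5, 1 and 74 UMIs outside null PNX, the depth of Fn1 limits any fold it is given.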
